A study of Oryctolagus cuniculus with 27 samples.

Results

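The genes described here encode the proteins of the cytosolic ribosome, the particle that translates messenger RNA outside the mitochondria. Gene names were taken where they read RPL or RPS followed by a number, with the letters A, X or L allowed, or were RPLP0, RPLP1, RPLP2 or RPSA. The kinases named RPS6K were not taken. The rule found 73 of the 31346 genes in the count tables, 44 of the large subunit and 29 of the small subunit, and RPLP2 was not among the listed names. Of the 73, 5 are named paralogs of another member (RPL3L, RPL7L1, RPL10L, RPL22L1 and RPL26L1). A further 5 ribosomal proteins stand in the tables under gene numbers, which RefSeq's gene list gives as RPL7A, RPL13, RPL38, RPS15 and RPS26, and these entered only as an alternative.

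Each ribosome joins a small subunit, which holds the 18S ribosomal RNA and decodes the message, to a large subunit, which forms the peptide bond. The ribosomal protein mRNAs are abundant in most tissues and share a pyrimidine tract at their start through which growth signals control their translation together. Many ribosomal protein genes have processed copies elsewhere in mammalian genomes, so reads can be split between a gene and its copies.

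Male New Zealand rabbits, labelled WT, ate normal chow or food that supplied 1% cholesterol together with ergocalciferol, a form of vitamin D, at 3500 IU per kg per day, a model of aortic valve stenosis. RNA was sequenced from 1 aortic valve cusp of each animal after 2, 4 or 7 weeks of the diet (4 libraries each) and from 4 control cusps, and from left ventricular myocardium (3 control and 3 diet) and ascending aorta (3 control and 2 diet). The titles of the myocardium and aorta libraries give no diet duration; by animal number all 3 diet myocardium libraries come from animals whose valve is titled 7 weeks, and diet aorta replicate 1 from an animal whose valve is titled 2 weeks. The titles put 3 control valves at 7 weeks and 1 at 2 weeks, while the design text pools controls from 2 and 4 weeks, so the age match of the controls is uncertain.

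Libraries held 8458453 to 19998954 counts, and no replicate pair differed by so little that it could be 1 library deposited more than once. The labels of myocardium and aorta went with their markers: 17 cardiomyocyte genes took 8.42% to 12.1% of the counts in myocardium and 0.371% to 0.472% in aorta. The 7 smooth muscle genes took 5.23% to 6.296% in aorta, 0.666% to 4.45% in valve and 0.0577% to 0.167% in myocardium. The 9 fibroblast and valve interstitial genes took 0.966% to 3.417% in valve, 1.27% to 1.79% in aorta and 0.146% to 0.329% in myocardium. That list therefore did not tell valve from aorta. The cardiomyocyte genes also took 1.13% to 4.65% in control cusps, 0.442% to 0.944% at 2 weeks, 0.437% to 3.25% at 4 weeks and 1.14% to 4.65% at 7 weeks, and no gene of that list was at 0 in every library of any tissue. Library names carry animal numbers, by which 6 animals gave 2 tissues. The 7-week valve libraries carry sequencing numbers apart from all other valve libraries, so any run effect and the 7-week diet cannot be told apart. Some other valve libraries carry the same sequencing numbers as myocardium or aorta libraries. Which libraries shared a run is not given, and a run effect in the comparisons between tissues was not tested.

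Ribosomal protein genes took a larger share of the counts in valve and aorta than in myocardium, and in valve the shares of the diet groups overlapped those of the controls. The members summed to 4.69%, 6.07%, 2.97% and 4.43% of the counts in the control cusps, 4.61%, 3.67%, 3.51% and 4.604% at 2 weeks, 4.45%, 5.57%, 4.99% and 4.09% at 4 weeks and 5.35%, 6.48%, 5.52% and 4.38% at 7 weeks. The means were 4.54% ± 1.27 (SD, n = 4), 4.10% ± 0.59 (SD, n = 4), 4.78% ± 0.65 (SD, n = 4) and 5.43% ± 0.86 (SD, n = 4). The control group alone spanned most of the range of the 16 valve libraries. Its lowest library, replicate 3, also had the highest cardiomyocyte share of the 4 control valves, at 4.65%. The 7-week replicate 2 had a cardiomyocyte share of 4.65% as well, with the highest member share of the 16 valve libraries. How the cardiomyocyte share and the member share relate was not tested. In aorta the share was 4.597%, 2.93% and 4.74% in controls and 3.304% and 3.09% with the diet, again with overlap. In myocardium it was 1.31%, 1.24% and 2.37% in controls and 1.603%, 1.14% and 1.396% with the diet, and every myocardium library lay below every valve and aorta library. Large subunit counts exceeded small subunit counts in all 27 libraries, by 1.14 to 1.298 times.

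RN18S, the 18S ribosomal RNA itself, differed between the 4-week and 2-week valves where the protein genes overlapped. It took 0.59%, 2.06%, 1.54% and 0.48% of the counts in control cusps, 1.57%, 1.97%, 1.36% and 1.705% at 2 weeks, 0.39%, 0.298%, 0.28% and 0.52% at 4 weeks and 0.51%, 2.09%, 2.204% and 1.51% at 7 weeks. The 4-week libraries were low and did not overlap the 2-week libraries, while the member shares of the same groups overlapped. The log2 fold change of RN18S at 4 against 2 weeks was -2.27 ± 0.52 (± standard error, as in all fold changes here), with an adjusted p of 0.0222 by edgeR's quasi-likelihood test, past the threshold of 0.05. At 4 weeks against control it was -1.78 ± 0.51 (adjusted p = 0.0892), not past it, while DESeq2 gave an adjusted p of 0.00591 for RN18S there. Without 4-week replicates 1, 2 or 3, or 2-week replicates 1 or 3, the adjusted p for 4 against 2 weeks was 0.0628, 0.0785, 0.0685, 0.0584 and 0.056. In aorta RN18S took 4.46%, 2.96% and 6.27% in controls and 4.64% and 4.22% with the diet. In myocardium it took 2.22%, 1.34% and 1.5001% in controls and 7.54%, 1.16% and 1.54% with the diet, with 1 diet library far above the other two. How ribosomal RNA was removed before sequencing is not given in the sources used here, and its part in these shares was not tested.

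**Figure D1:**
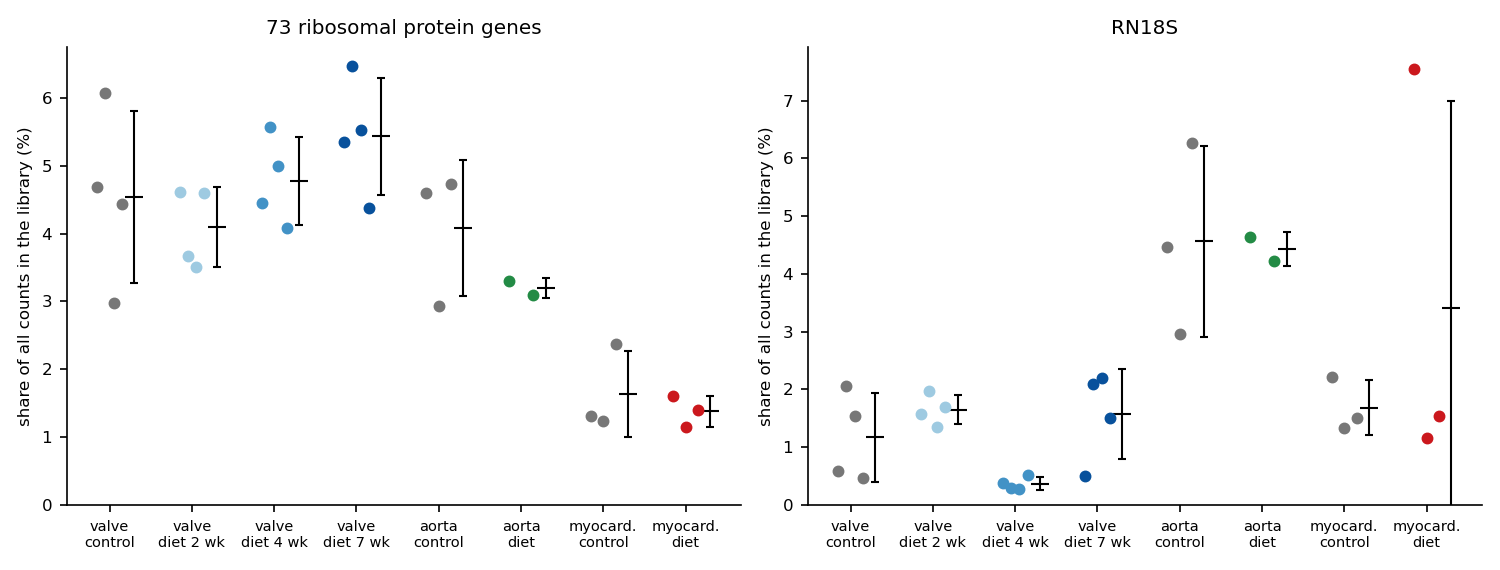
Share of all counts in each library (%) taken by the 73 ribosomal protein genes (left) and by RN18S (right); points are libraries, bars beside them the group mean and SD, cut at 0. Myocardium lies lowest on the left, at 1.14% to 2.37%, and on the right the 4-week valves, at 0.282% to 0.516%, lie below the 2-week valves, at 1.36% to 1.97%.

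Most members moved together from library to library. With each member set against the median member of its library on a log2(CPM + 1) scale (CPM, counts scaled to 1000000 per library), the SD over the 27 libraries had a median of 0.186, and 56 of the 73 members were under 0.3. RPL11, RPL24 and RPL10A, all of the large subunit, had the smallest values, at 0.0795, 0.0888 and 0.0949. Not set against the median member, their SDs over the 27 libraries, which include the differences between tissues, were 0.826, 0.828 and 0.735. This spread was not computed over all genes, so whether moving together is particular to the members was not tested. The largest values were those of RPL3L at 2.84, RPL39 at 2.49 and RPL34 at 2.06. RPL10L and RPS9 had means under 5 CPM, with RPL10L at 0 to 0.294 CPM and RPS9 at 0.0706 to 0.979 CPM. Among values of 10 or more counts, 78.7% of the members' values were not whole numbers, against 16.1% over all genes. A value that is not whole holds reads that the authors' counting tool shared between places, so the level of a single member is uncertain to that extent.

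Against control valves, no member passed the test at any week. At 2 weeks 64 of 72 members tested had a negative fold change, with a median of -0.18 on the log2 scale against 0.02 over all genes. That median ran from -0.31 without control replicate 3 to -0.06 without control replicate 2. edgeR called 0 members, with 2 at an unadjusted p under 0.05, and 1, RPL3L, passed by DESeq2. Over all genes edgeR called 0.025%, the unadjusted test 16.4% and DESeq2 6.04%. At 4 weeks the members' median was -0.10 against -0.03, with 59 of 72 negative; on library totals alone it turned to 0.05 with 54 positive, and the median of all genes to 0.13. edgeR called 0 members, 2 had an unadjusted p under 0.05 and 0 passed by DESeq2, where the same rules called 2%, 12.8% and 4.83% of all genes. At 7 weeks the sign turned: 65 of 72 members were positive, against 49.4% of all genes, with a median of 0.27 against -0.01. edgeR called 0 members, with 5 at an unadjusted p under 0.05, and 2, RPL29 and RPLP0, passed by DESeq2. The same rules called 7.79%, 25.8% and 13.9% of all genes, so the members' counts were not above the background. These comparisons share the 4 control libraries. Leaving out 1 library at a time moved the 7-week median between 0.05, without 7-week replicate 2, and 0.41, without control replicate 2, and gave 0 calls each time. Cell markers moved in the same 7-week comparison: 12 of 14 macrophage, 4 of 5 erythroid, 5 of 8 proliferation and 4 of 4 atrial muscle genes were higher and 6 of 7 smooth muscle genes were lower, while 0 of 17 cardiomyocyte genes passed. The macrophage genes took 0.0247% to 0.0609% of the counts in control cusps and 0.151% to 0.235% at 7 weeks, and the part of these cells in the members' shift was not tested.

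The member nearest to the threshold at 7 weeks was RPLP0, which anchors the stalk that recruits elongation factors. It stood at 1071, 1187, 693 and 914 CPM in control cusps, 1105, 926, 1001 and 1225 at 2 weeks, 1287, 1442, 1467 and 994 at 4 weeks and 1543, 1579, 1444 and 1259 at 7 weeks. All 4 of the 7-week libraries lay above all 4 controls, while the 2-week and 4-week libraries overlapped the controls. Its 7-week fold change was 0.61 ± 0.19 with an adjusted p of 0.0655. The next by unadjusted p were RPL29 at 0.75 ± 0.27 (adjusted p = 0.0913) and RPS19 at 0.68 ± 0.26 (adjusted p = 0.108), whose libraries overlapped the controls.

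Between 2 and 7 weeks of the diet, 7 members were higher at 7 weeks and none was lower. They were RPL3L, RPL23, RPL28 and RPL29 of the large subunit and RPS19, RPS23 and RPS29 of the small subunit. These were 7 of 72 members tested, and edgeR called 14.5% of all genes higher and 12.2% lower, so higher calls were no more frequent among the members than among all genes. The shift was broad and small: 69 of 72 members were positive, against 51.2% of all genes, and the median was 0.48 against 0.02. Leaving out 1 library moved that median between 0.25, without 7-week replicate 2, and 0.58, without 2-week replicate 1. The 3 negative members were RPL5 at -0.08 ± 0.16, RPL7L1 at -0.34 ± 0.13 and RPS4X at -0.03 ± 0.20, none past the threshold. In 16 of the 72 members all 4 of the 7-week libraries lay above all 4 of the 2-week libraries, where 13% of all genes did so.

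RPS19, a small subunit protein whose gene is often mutated in Diamond-Blackfan anaemia, rose from 453, 382, 357 and 597 CPM at 2 weeks to 694, 1058, 716 and 622 at 7 weeks. The groups did not overlap, and the fold change was 0.85 ± 0.26 (adjusted p = 0.0255). Its control valves overlapped both groups, at 526, 633, 329.8 and 504 CPM. RPL28, a large subunit protein, rose from 283, 195, 159 and 207 CPM to 316, 459, 397 and 338 CPM, by 0.88 ± 0.24 (adjusted p = 0.0169). RPL29, another large subunit protein, which can also bind heparin, rose from 437, 403, 467 and 586 CPM to 886, 1134, 758 and 602 CPM, by 0.88 ± 0.27 (adjusted p = 0.0253). In these 3 genes, as in the 3 that follow, the 7-week libraries lay above the 2-week libraries. All 6 were picked by the test between these same weeks, so this separation adds no support to it. RPS29, which carries a zinc finger, rose from 382, 280.04, 201 and 269.7 CPM to 411, 763, 484 and 430.03 CPM, by 0.95 ± 0.30 (adjusted p = 0.0311). RPS23, which lies at the decoding centre, rose from 441, 367, 284 and 424 CPM to 539, 795, 658 and 519 CPM, by 0.78 ± 0.25 (adjusted p = 0.0343). RPL23, a large subunit protein that can also bind MDM2, rose from 580.3, 424, 364 and 553 CPM to 781, 922, 746 and 595 CPM, by 0.70 ± 0.25 (adjusted p = 0.0474). In each of these 6 genes 7-week replicate 2 was the highest of the 16 valve libraries, and the 4-week libraries overlapped both the 2-week and the 7-week libraries.

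**Figure D2:**
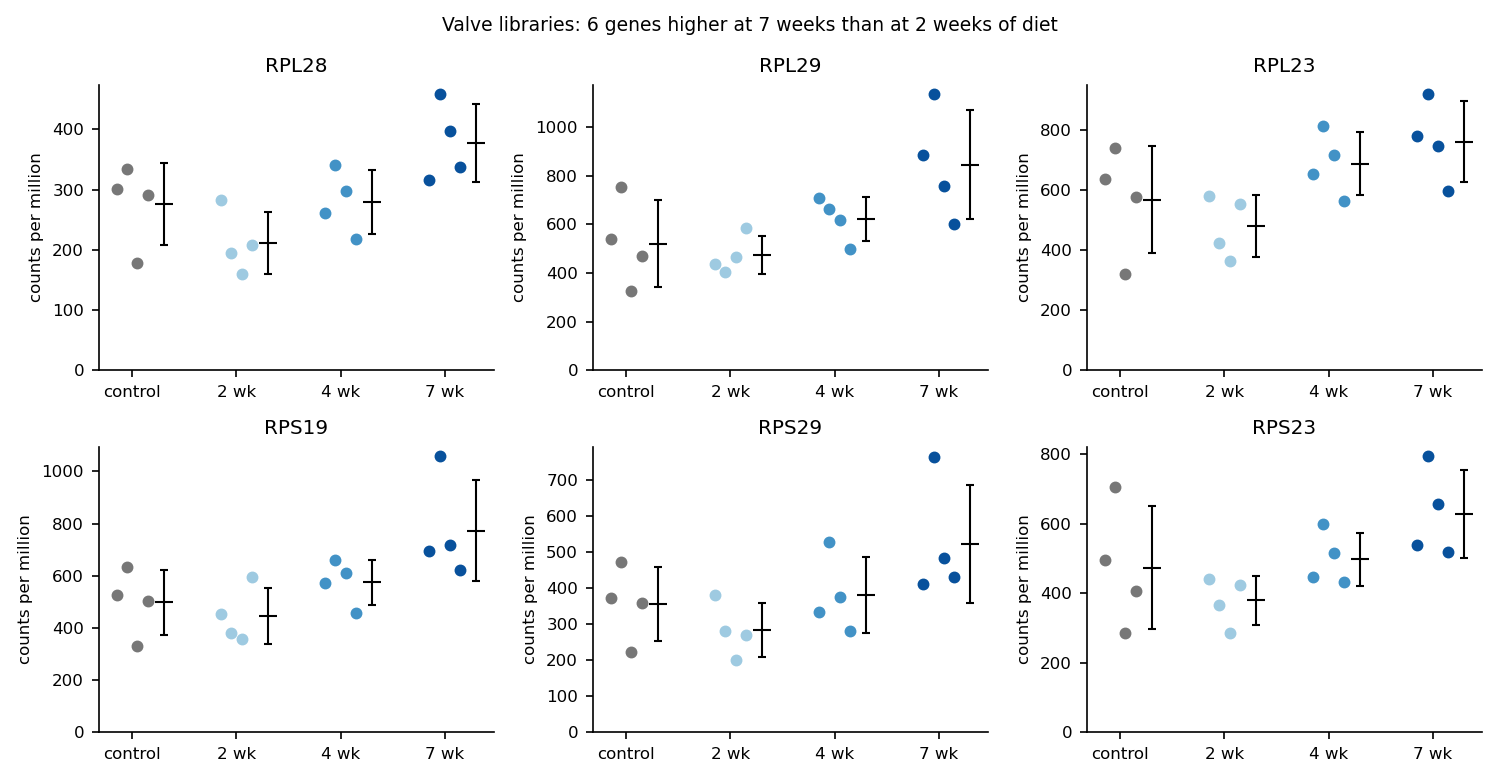
CPM of RPL28, RPL29, RPL23, RPS19, RPS29 and RPS23 in the 16 valve libraries by group; points are libraries, bars beside them the mean and SD. The 7-week libraries lie above the 2-week libraries in each panel (RPS19 at 622 to 1058 against 357 to 597), and the control libraries overlap the 2-week libraries.

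The number of members past the threshold between 2 and 7 weeks rested on few libraries. It was 1 without 7-week replicate 2, which had the lowest depth of all libraries and the highest cardiomyocyte share of its group, and 17 without 7-week replicate 1, where the same fits called 16.8% and 34.6% of all genes. It was 3, 2 and 4 without 2-week replicates 2, 3 and 4, with 22.4%, 16.9% and 23.7% of all genes called, and 2 when only the 8 compared libraries were fitted. With the cardiomyocyte marker share as a covariate it was 0. RPL28, RPS23 and RPS29 then stood at 0.92, 0.89 and 0.92 with adjusted p-values of 0.138, 0.168 and 0.249. That share did not overlap between the weeks, at 0.442% to 0.944% at 2 weeks and 1.14% to 4.65% at 7 weeks. The fit with this covariate therefore cannot fully separate the share from the week. For it and for the fit of the 8 libraries the share of all genes called is not given here. DESeq2 called 17 members, 16 higher and RPL7L1 lower, where it called 32.4% of all genes. Markers of other cells moved in the same comparison: 12 of 17 cardiomyocyte genes, 13 of 14 macrophage genes and 4 of 5 erythroid genes were higher at 7 weeks, and 7 of 7 smooth muscle genes were lower. The macrophage genes summed to 0.0156% to 0.0467% of the counts at 2 weeks and 0.151% to 0.235% at 7 weeks, the erythroid genes to 0.0287% to 0.0887% and 0.221% to 0.572%, and the smooth muscle genes to 2.85% to 4.45% and 0.666% to 1.43%; none of these markers was at 0 in every valve library. The part of these cells in the members' fold changes was not settled by the cardiomyocyte covariate and was not otherwise tested. In bulk tissue more cells of a type and more RNA per cell cannot be told apart.

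Between 2 and 4 weeks edgeR called 0 members, with 1 at an unadjusted p under 0.05, and none passed by DESeq2. The same rules called 4.36%, 19.7% and 9.44% of all genes. The members' median was 0.11 against -0.0013 over all genes. The smallest unadjusted p belonged to RPL26L1 at 0.37 ± 0.16 (adjusted p = 0.198), followed by RPL5 at -0.32 ± 0.16 (adjusted p = 0.293) and RPL3L at 1.51 ± 0.77 (adjusted p = 0.299). RPL26L1 and RPL3L were also 2 of the 3 smallest at 4 weeks against control, at 0.36 ± 0.16 and -1.65 ± 0.75, and the other was RPL5 at -0.26 ± 0.16. At 2 weeks against control the 3 smallest were RPL3L at -3.16 ± 0.81, RPL34 at -1.49 ± 0.68 and RPL21 at -0.35 ± 0.20.

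**Figure D3:**
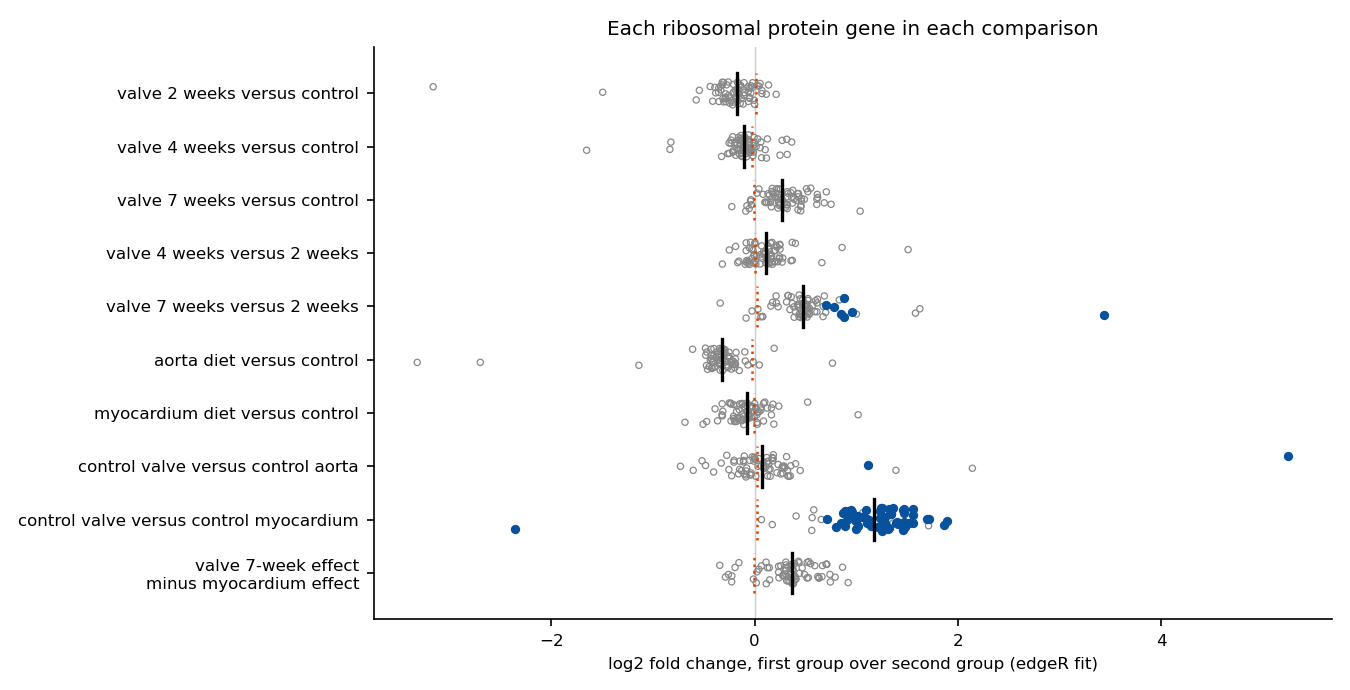
Log2 fold change of each tested ribosomal protein gene in each comparison (first group over second, edgeR fit); filled points are past an adjusted p of 0.05, the black bar is the members' median and the dotted bar the median of all genes tested. Control valve against control myocardium stands at a median of 1.18, and the 7-week against 2-week valves at 0.48.

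Members with known roles outside the ribosome, or at its best known sites, did not pass the threshold at any week against control. RPS6, the small subunit protein that S6 kinases phosphorylate, stood at 868 ± 231 CPM (mean ± SD, n = 4) in control cusps, 762 ± 68.8 at 2 weeks, 978 ± 182 at 4 weeks and 899 ± 166 at 7 weeks. RPL5 and RPL11, which bind 5S ribosomal RNA and can hold MDM2 away from p53, had 7-week fold changes of -0.03 ± 0.16 and 0.25 ± 0.23 against control. RPSA, which also occurs as a laminin receptor, was 0.24 ± 0.28, and RPLP1, a stalk protein, was 0.55 ± 0.27. RPS27A, made as a fusion with ubiquitin, was 0.17 ± 0.20, RPS4X was -0.08 ± 0.20 and RPL10, the late-joining protein near the P site, was -0.04 ± 0.20.

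RPL3L, the paralog that replaces RPL3 in heart and skeletal muscle, had the largest SD against the median member over the 27 libraries, at 2.84. Within valve, aorta and myocardium RPL39 had a larger SD than RPL3L, at 1.92, 2.56 and 2.51 against 1.55, 0.59 and 0.267. RPL3L stood at 53.9, 20.8, 81.97 and 40.7 CPM in control cusps and 2.24, 7.63, 6.39 and 6.6003 at 2 weeks. It stood at 20.8, 15.3, 4.57 and 29.1 CPM at 4 weeks and 16.3, 116, 9.803 and 79.4 at 7 weeks. The 2-week libraries lay below all controls and all 7-week libraries and overlapped the 4-week libraries, with a fold change of -3.16 ± 0.81 against control (edgeR adjusted p = 0.0737, DESeq2 adjusted p = 0.00449) and of 3.44 ± 0.81 for 7 against 2 weeks (edgeR adjusted p = 0.00829). Myocardium held 128 to 234 CPM and aorta 0.782 to 1.68 CPM. As a description over the 16 valve libraries, those with a larger share of cardiomyocyte markers tended to hold more RPL3L. It ran from 2.24 CPM at a share of 0.44% to 116 CPM at 4.65%. With that share as a covariate the 7-week against 2-week fold change was 0.42 ± 0.59 (adjusted p = 0.743). The share did not overlap between these weeks, so the fit cannot fully separate it from the week. RPL3 did not go with RPL3L: it stood at 646 to 1483 CPM in control cusps, 902 to 1297 at 2 weeks and 932 to 1253 at 7 weeks, and its 7-week against 2-week fold change was 0.03 ± 0.21. In myocardium RPL3 stood at 193 to 451 CPM.

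**Figure D4:**
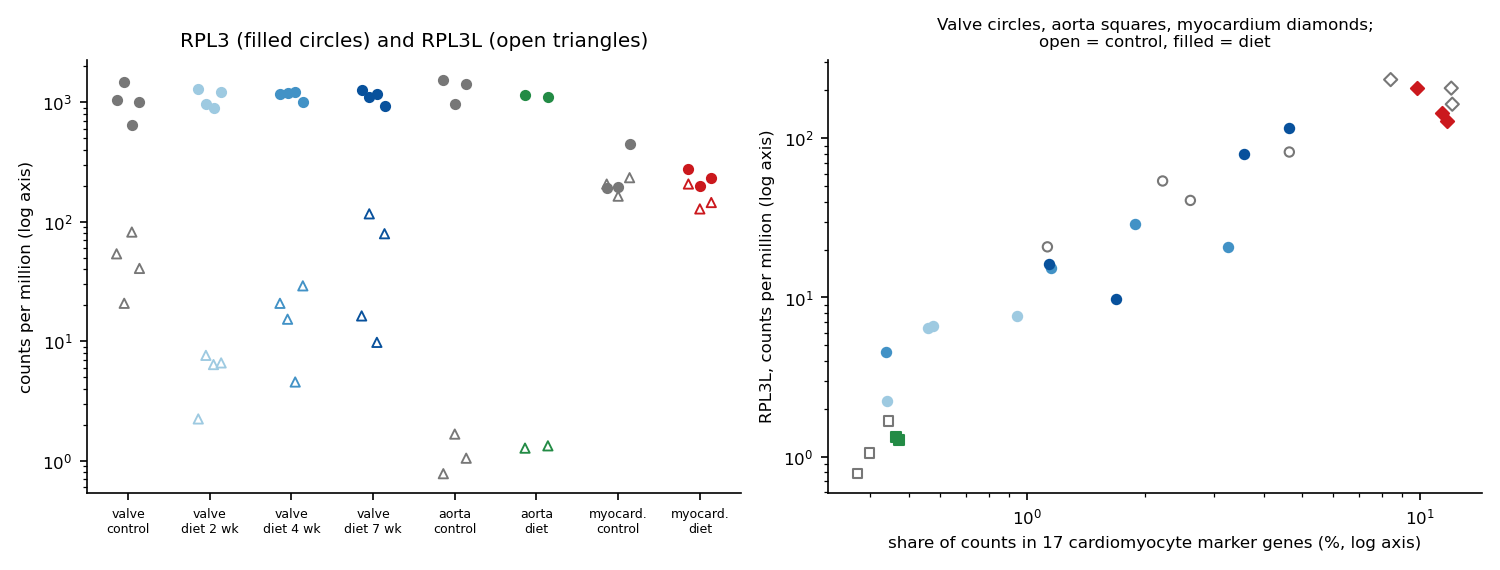
Left, RPL3 (filled circles) and RPL3L (open triangles) in CPM on a log axis by group. Right, RPL3L (CPM) against the share of counts in 17 cardiomyocyte marker genes (%), both on log axes, 1 point per library; RPL3L runs from 0.782 to 1.68 in aorta to 128 to 234 in myocardium with the valve libraries between.

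For the other paralog pairs the difference within a pair was not tested. RPL22, which binds RNA beyond the ribosome, was 0.59 ± 0.21 (adjusted p = 0.0531) at 7 against 2 weeks and its paralog RPL22L1 0.57 ± 0.36 (adjusted p = 0.244). RPL26 was 0.47 ± 0.21 and RPL26L1 0.33 ± 0.16 in the same comparison, and RPL7 was 0.06 ± 0.17 beside -0.34 ± 0.13 for RPL7L1, which is thought to act in ribosome assembly; none of these passed by edgeR, and RPL7L1 was lower by DESeq2 (adjusted p = 0.0375). RPL10L, a testis paralog of RPL10, did not pass the filter on low counts in any comparison.

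Ribosomal protein genes were higher in valve than in myocardium almost throughout. Of 72 members tested, 59 were higher in control valve than in control myocardium and 1, RPL3L, was lower, where edgeR called 23.3% of all genes higher and 21.5% lower. In this comparison 2 animals gave both a control valve and a control myocardium library, and the fit does not model the shared animals. Which of these libraries shared a sequencing run is not given. The median was 1.18 against 0.02 over all genes. In 58 members every control valve lay above every control myocardium, where 34% of all genes did so. The largest differences among called members were those of RPS27 (1.89 ± 0.32), RPL23A (1.86 ± 0.33), RPS4X (1.72 ± 0.24), RPS12 (1.69 ± 0.30), RPL3 (1.56 ± 0.27) and RPL9 (1.56 ± 0.27). RPL23A is set beside another gene, LOC108177974, further below, and their summed counts stood at 1.53 ± 0.27 here. RPS4X, encoded on the X chromosome, stood at 1796, 2255, 1079 and 1594 CPM in control valves and 311, 294 and 593 in control myocardium, without overlap (adjusted p = 4.96e-06). RPS27, a zinc finger protein of the small subunit, stood at 567, 718, 299 and 537 CPM and 81.1, 81.1 and 175 CPM (adjusted p = 7.34e-05). Of the 12 members not past the threshold, RPS2, singled out after its values were seen, stood at 0.17 ± 0.27 (adjusted p = 0.629). RPL3L went the other way, at -2.36 ± 0.67 (adjusted p = 0.00644). RN18S was -0.94 ± 0.60 (adjusted p = 0.21). On library totals alone the members' median was 1.53, with that of all genes at 0.38. Cell markers differed with them: 11 of 17 cardiomyocyte genes were lower in valve, and 9 of 9 fibroblast and 6 of 7 smooth muscle genes were higher. The cardiomyocyte genes took 8.42% to 12.1% of the control myocardium counts and 1.13% to 4.65% of the control valve counts, and their part in the members' difference was not tested.

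Between control valve and control aorta few members differed. Of 72 members 2 were higher in valve, RPL3L at 5.25 ± 0.89 (adjusted p = 0.000409) and RPL22L1 at 1.12 ± 0.41 (adjusted p = 0.0491), and none was lower, where edgeR called 14% of all genes higher and 9.8% lower. RPL22L1 stood at 30.2, 42.1, 17.98 and 27.4 CPM in valve and 17.5, 5.41 and 13.8 CPM in aorta, and its adjusted p was over 0.05 without control valve replicate 1, 2 or 4 or control aorta replicate 2 or 3 (lowest 0.0795, highest 0.237). The members' median was 0.08 against 0.02. RN18S was lower in valve than in aorta, at -2.13 ± 0.61 (adjusted p = 0.0149), although the members' shares of counts overlapped; without control valve replicate 4 or control aorta replicate 3 its adjusted p was 0.0514 and 0.0643.

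In aorta nearly all members had a negative fold change with the diet, and none passed the test. Of 71 members tested 68 were negative, with a median of -0.33 against -0.02 over all genes, of which 46.7% were positive. edgeR called 0 members, 1 had an unadjusted p under 0.05 and 0 passed by DESeq2 (it gave no adjusted p for RPL39), where the same rules called 0.159%, 12.2% and 2.83% of all genes. That member was RPL29, at 577, 389 and 512 CPM in controls and 315 and 310.5 with the diet, a change of -0.61 ± 0.20 (adjusted p = 0.317). In 5 members both diet libraries lay below all 3 controls, where 20.4% of all genes did so. Control replicate 2 was low for most members, with RPL11 at 692, 424 and 719.6 CPM in the 3 controls and 444 and 413 CPM with the diet. Without it 10 of 71 members passed, all lower with the diet, where 0.699% of all genes were called lower and 1.33% higher, with RPL11 at -0.69 (adjusted p = 0.0407) and RPL29 at -0.77 (adjusted p = 0.0351) among them. The 3 positive members were RPL3L, RPL7L1 and RPL22L1, all paralogs.

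In myocardium no member passed the test. edgeR called 0 of 71 members, 1 had an unadjusted p under 0.05 and 0 passed by DESeq2, where the same rules called 0.0848%, 8.85% and 2.18% of all genes. The median was -0.08 against -0.01, with 20 positive and 51 negative; on library totals alone it was -0.27 beside -0.14, with 7 positive. The smallest unadjusted p was that of RPL23A, at 1.02 ± 0.34 (adjusted p = 0.38), followed in unadjusted p by RPL17 at -0.69 ± 0.42. Setting the 7-week valve effect against the myocardial effect, edgeR called 0 of 72 members, 0 had an unadjusted p under 0.05 and 0 passed by DESeq2, where the same rules called 0.95%, 16.3% and 3.45% of all genes. The median difference was 0.36 against -0.0041 over all genes, and ran from 0.12 without control myocardium replicate 3 to 0.604 without diet myocardium replicate 1. The smallest unadjusted p was that of RPS23 at 0.79 ± 0.41 (adjusted p = 0.345), then RPL29 at 0.63 ± 0.35 and RPS16 at 0.71 ± 0.39.

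A few members stood at high and low levels side by side within groups. RPL39, a short basic protein of the exit tunnel, stood at 25.4, 350.4, 167 and 35.3 CPM in control cusps, 28.1, 179, 2.27 and 202 at 2 weeks, 214, 347, 20.5 and 195 at 4 weeks and 50.03, 439, 332 and 265 at 7 weeks. In aorta it stood at 146, 2.44 and 1.03 CPM in controls and 0.523 and 8.95 with the diet, and in myocardium at 60.3, 54.8 and 4.94 and 84.6, 0.452 and 71.2 CPM. Low and high libraries stood side by side in every valve group. In the 6 animals that gave 2 tissues, the 2 lowest valves belonged to the animals whose other tissue was lowest. The first of these animals had 50.03 CPM in valve and 0.452 in myocardium, the other 28.1 in valve and 0.523 in aorta. Aortas of other animals were low as well, at 2.44, 1.03 and 8.95 CPM, so the aorta pair cannot tell animal from tissue. The other 4 animals had 350.4, 167, 439 and 265 CPM in valve. With the animals listed alike, their myocardium stood at 60.3, 54.8, 71.2 and 84.6 CPM, and the ranks of the 2 tissues differed. RPL34, also of the large subunit, ranged from 20.4 to 636 CPM in valve, from 1.32 to 239.7 CPM in aorta and from 56.4 to 154 CPM in myocardium.

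RPL23A was set beside a gene without a symbol, LOC108177974, chosen after the values were seen. The choice was made because its counts complemented those of RPL23A in these same libraries. A smaller spread or diet effect of their sum is therefore built into the choice, and the sums below are a description only. RPL23A, at the mouth of the exit tunnel, stood at 152, 81.6 and 168 CPM in control myocardium and 294, 184 and 245 CPM with the diet, while LOC108177974 stood at 47.7, 97.5 and 155 and 1.37, 1.09 and 1.22 CPM. LOC108177974 was past the threshold in myocardium at -6.15 ± 0.46 (adjusted p = 0.00401) and in 7-week valve at -4.62 ± 0.92 (adjusted p = 0.0101), where it stood at 216, 287, 239.6 and 195 CPM in controls and 8.02, 10.04, 9.87 and 10.1 at 7 weeks. At 2 weeks it stood at 25.6, 7.63, 121 and 14.1 CPM and at 4 weeks at 19.8, 26.1, 199 and 24.04 CPM. Diet libraries at 2 and 4 weeks were thus both low and high, and in aorta the controls were low as well, at 8.78, 3.66 and 3.39 CPM, beside 4.36 and 3.36 CPM with the diet. All 3 diet myocardium libraries come from animals that also gave a 7-week valve, so these low values are not from separate animals. Over the 27 libraries the SD against the median member, on the scale above, was 0.462 for RPL23A alone and 0.171 for the sum. Within tissues it went from 0.314 to 0.094 in valve and from 0.690 to 0.199 in myocardium, and was not lower in aorta, at 0.133 alone and 0.134 for the sum. The counts did not run opposite within every group: both genes were highest in the same library among the control valves, the control myocardium and the control aortas. RPL23A alone was not past the threshold by edgeR, at 1.02 ± 0.34 (adjusted p = 0.38) in myocardium and 0.71 ± 0.29 (adjusted p = 0.146) in 7-week valve. Summed with LOC108177974 it stood at 0.23 ± 0.30 in myocardium and 0.26 ± 0.23 in 7-week valve. These smaller values follow from how the gene was chosen and test nothing. What sequence these genes share was not tested.

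**Figure D5:**
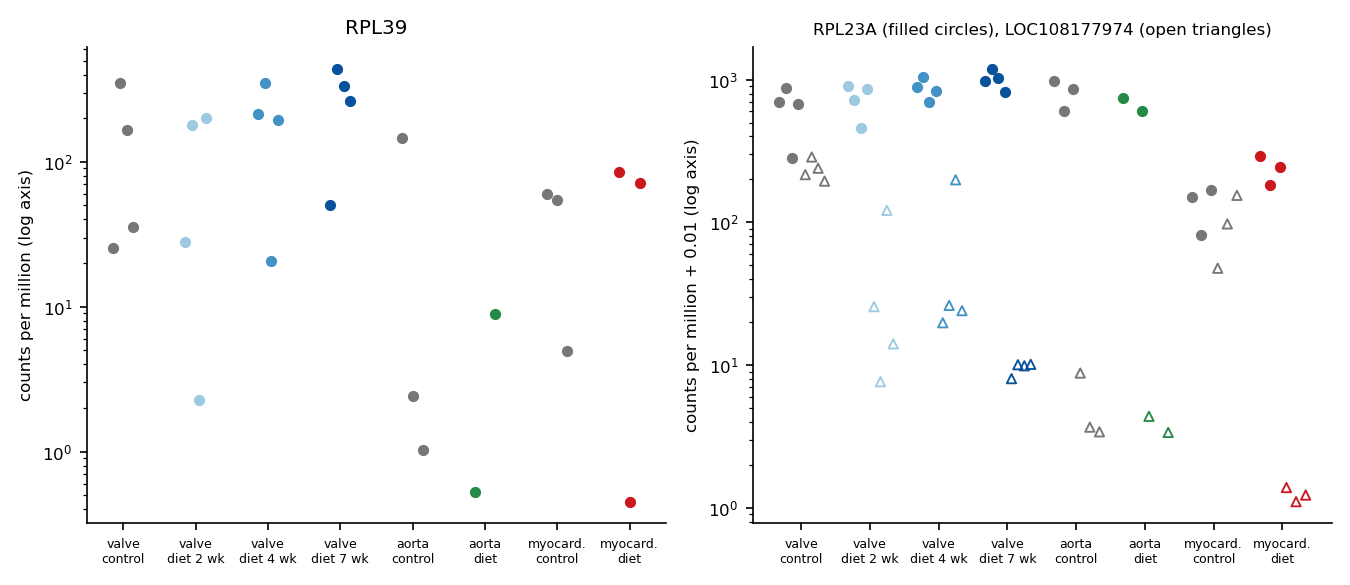
CPM on log axes in each library by group: RPL39 (left) and RPL23A with LOC108177974 (right; 0.01 added in the right panel), circles for the ribosomal protein gene and triangles for the other. RPL39 spans 2.27 to 439 in valve, and LOC108177974 stands at 1.09 to 1.37 in diet myocardium against 47.7 to 155 in its controls.

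Genes that work with the ribosome were taken as lists, and their calls stand beside those of all genes, of which 14.5% were higher and 12.2% lower at 7 against 2 weeks and 23.3% higher and 21.5% lower in control valve against myocardium. Of 5 ribosomal protein genes with names outside the rule none passed at 7 against 2 weeks, and 3 were higher in control valve than in myocardium, RACK1 at 1.08 ± 0.18, RPL36AL at 2.66 ± 0.93 and FAU at 0.83 ± 0.30. Of 16 translation factors and partners whose mRNAs carry the same pyrimidine tract, 2 were higher at 7 than at 2 weeks, EEF1B2 at 0.64 ± 0.19 and TPT1 at 0.53 ± 0.16, and none was lower, with a median of 0.09. In control valve against myocardium 10 of the 16 were higher, EEF1A1 at 2.25 ± 0.28 and EIF3H at 1.25 ± 0.15 among them. Of 22 initiation factors 3 were lower at 7 than at 2 weeks, EIF4G2 at -1.13 ± 0.26, EIF5 at -0.55 ± 0.15 and EIF4H at -0.33 ± 0.12, and none was higher. Of 39 ribosome assembly genes 3 were higher, NHP2 at 0.78 ± 0.20, NOP16 at 0.48 ± 0.16 and POLR1A at 0.67 ± 0.23, and none was lower. Of 15 regulators of translation 1 was higher, EIF4EBP1 at 1.00 ± 0.32, and 1 was lower, EIF4EBP2 at -0.99 ± 0.20; both encode proteins that hold back the cap-binding factor EIF4E.

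The 75 mitochondrial ribosomal protein genes, which build the separate ribosome of the mitochondrion, were mostly higher at 7 than at 2 weeks and lower in valve than in myocardium. At 7 against 2 weeks 42 of 75 were higher and 1 was lower, where 14.5% of all genes were higher and 12.2% lower, with a median of 0.67, MRPL14 at 1.19 ± 0.24 and MRPS25 at 1.41 ± 0.31 among them. In control valve against myocardium 44 were lower and none was higher, with a median of -0.69 beside 1.18 for the cytosolic genes, MRPS9 at -1.29 ± 0.22 and MRPL1 at -1.27 ± 0.23 among them. They summed to 0.162% to 0.195% of the counts at 2 weeks and 0.192% to 0.333% at 7 weeks, beside 0.273% to 0.335% in control myocardium. Cardiomyocyte markers moved in the same direction in both comparisons, 12 of 17 higher at 7 against 2 weeks and 11 of 17 lower in valve against myocardium, and their part was not tested. The difference between the lists was not tested either.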

How the data were processed

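RNA-seq was read from 27 rabbit libraries. The values used are each gene's expected counts, estimated by the authors from aligned reads and deposited as raw tables for valve, aorta and myocardium, 16, 5 and 6 libraries. Reads were handled with FastQC 0.11.9, Trim Galore 0.6.6, STAR 2.7.8a and RSEM 1.3.3, and edgeR 3.42.4 was used, per the submitters' processing notes. Genome build, annotation and strand setting: not given in the sources used here. Expected counts from such tools divide reads that map to several places, which bears on genes with many copies.

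Expected counts were rounded to whole numbers. Genes were kept with edgeR's filterByExpr (minimum count 10, minimum total 15), scaled with TMM and tested two-sided with the quasi-likelihood test of edgeR 4.0.16 (limma 3.58.1, R 4.3.3), with p-values adjusted by Benjamini-Hochberg across every tested gene, at a threshold of 0.05. Diet effects were fitted within each tissue, and tissue contrasts and the difference of diet effects in a joint fit of the 27 libraries, which does not model that 6 animals gave 2 tissues. Groups came from the sample titles. CPM values (counts scaled to 1000000 per library) and shares of counts use library totals. Depth limits the precision of low genes. No p is given for a share summed over members. Members and lists were chosen with earlier results of these data known.

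Named genes were RPLP0, RPLP1, RPSA, RPS6, RPS19, RPL5, RPL11, RPS27A, RPS4X, RPL10, the paralog pairs and RN18S; the members past the threshold, up to 10, otherwise the 6 in each direction with the largest fold change and a mean of at least 5 CPM; with none past it, the 3 smallest unadjusted p; and up to 4 of each other list, by the smallest unadjusted p. The scripts were tested on simulated data. Alternatives were DESeq2 1.42.0, other scalings, no filter, RN18S or marker shares as covariates, the replicate number as a block and leaving out each library. Summing members with complementary genes (RPL23A with LOC108177974), and setting the valve effect against that in aorta, were added after seeing the data. The authors' valve table without myocardial genes served as an alternative only. Some genes are not reported here.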

Additional observations from a re-analysis of the deposited data

Results flagged for a closer look

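RPL26, a large subunit protein, was flagged as low in 1 library. Its level in 7-week valve replicate 4 was 724 CPM, and the nearest of the other 7-week libraries was at 977 CPM; the gap was 0.854 of the range of the group, above Dixon's critical value for 4 libraries. It was 1 of 112 groups tested that stood out in this way, and chance flags about 1 in 20. The same library had the lowest member share of the 7-week valves, at 4.38%. Set against the median member of each library, RPL26 had an SD of 0.0852 over the valve libraries. How far its low level follows the level of all members was not tested.

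RPLP0, the stalk protein, had fold changes of opposite sign in 2 tissues. Opposite signs were not particular to it: 65 of 72 members were positive in 7-week valve and 68 of 71 negative in aorta. For RPLP0 all 4 of the 7-week valves lay above all controls, with a log2 fold change of 0.61. Both diet aortas lay below all 3 controls for RPLP0, with -0.33. Neither change passed the threshold within its tissue. The difference of the effects for RPLP0, tested in the joint fit by edgeR in an analysis added after seeing the data, was 0.87 ± 0.32 with an adjusted p of 0.189. The members' median difference was 0.53, against -0.01 over all genes. In the same test 0 of 72 members were called and 4 had an unadjusted p under 0.05, where 0.361% of all genes were called and 17.5% had an unadjusted p under 0.05. The diets may differ in length: the aorta titles give none, and 1 of the 2 diet aortas comes from an animal whose valve is titled 2 weeks.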

How the results depend on the processing

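The number of members past the threshold depended on the processing most between 7 and 2 weeks. There it was 17 by DESeq2, 2 when only the 8 compared libraries were fitted, 0 with the cardiomyocyte share as a covariate and 1 to 17 when 1 library was left out. DESeq2 called 32.4% of all genes there, and the fits with 1 library left out called 16.2% to 34.6%. At 2 weeks against control it was 1 by DESeq2, 1 in the 8 libraries alone and 0 to 1 with 1 library left out. At 7 weeks against control it was 2 by DESeq2. DESeq2 called 6.04% of all genes at 2 weeks and 13.9% at 7 weeks against control. In aorta it was 0 to 10 with 1 control library left out, where 0.0212% to 2.03% of all genes were called. Between control valve and aorta it was 1 with RLE scaling, 1 without the filter, 1 with the RN18S share as a covariate and 1 to 3 with 1 library left out. With 1 library left out 13.9% to 24% of all genes were called there. For the other settings in this section the share of all genes called is not given here. A general change in calls and a change in the members cannot be told apart in those settings. The members' median for valve against myocardium was 1.53 on library totals, where the median of all genes moved to 0.38, and for valve against aorta it was 0.40 with the RN18S share as a covariate; with that covariate, which is its own share, RN18S itself stood at 0.0016. With 1 library left out the members' median changed sign in 3 comparisons, running from -0.24 to 0.03 at 4 weeks against control, -0.33 to 0.15 in myocardium and -0.10 to 0.20 for valve against aorta. The share of counts in diet aorta was 3.05% without the largest member and 3.39% with the members known by gene number. Over single genes and RN18S, 3575 values counted as unchanged, 84 moved, 63 fell short of the threshold, 26 newly passed it and 1 reversed. Genes past the threshold in neither setting counted as unchanged within 1 standard error of the main value, and as moved beyond that. Their sign was not checked. A reversal was counted only for a gene past the threshold in at least 1 of the settings compared. The cause of these changes was not tested. Same-numbered libraries did not deviate together in the median (correlation -0.07 over 24 pairs in valve, -0.04 over 2 in aorta, -0.13 over 3 in myocardium). This gave no sign that the numbers pair libraries, but with so few pairs in aorta and myocardium it cannot exclude pairing. With a replicate block 5 members passed between 7 and 2 weeks in place of 7. Taking out mitochondrially encoded genes was not run, as 0 are named as such.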
